A study of Saccharomyces cerevisiae with 12 samples.

Results

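The 10 genes described here act in meiosis and sporulation of budding yeast. They include the regulators IME1 and IME2, the chromosome axis genes HOP1 and RED1, and the synaptonemal complex gene ZIP1. The others are the double-strand break genes SPO11 and MEI4, the meiosis I gene SPO13, and the sporulation genes SMK1 and SPR3. All 10 were chosen by name, as a list headed meiosis genes with Abf1-type control, out of 6002 nuclear protein-coding genes. Such control is not taken as known for each of the 10. Each was followed over the CpG sites from 700 bp upstream to 500 bp downstream of its start codon (genome build R64). These windows held 302 CpG sites, and all 302 had at least 5 methylation calls in every library, as did 353646 CpG sites of the nuclear genome.

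Meiosis genes are silent in dividing cells. At many of them the DNA-binding protein Ume6 sits on a short element called URS1 and brings in repressive chromatin enzymes, and in meiosis the same element serves activation. Abf1 is an essential DNA-binding protein of the general regulatory factor class, known for keeping promoters free of nucleosomes and for setting the register of the nucleosomes on both sides of its site, and an Abf1 site known as UASH takes part in the control of HOP1.

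The libraries came from ABF1-aa-V5 clone A9, 1 clone in the BY4741 background, in which the chromosomal Abf1 is removed from the nucleus by rapamycin (anchor-away). All cells therefore carried this allele, were grown to log phase without leucine, and received 8 µg/mL rapamycin for 75 min before formaldehyde crosslinking. The constructs differed in the pRS315 plasmid: WT Abf1, no Abf1 (the empty plasmid), or EM shuffle. EM shuffle is an Abf1 whose essential motif has its residues in shuffled order, and the paper lists it as inviable. The paper describes its system as lacking the first disordered region of Abf1. Its designed constructs also carry an added nuclear localization signal and a Flag tag. EM shuffle and WT Abf1 may thus differ in more than the motif. Chromatin was treated with the CpG methyltransferase M.SssI, which reaches open DNA and not DNA covered by a nucleosome or a bound protein, so a high methylation level stands for accessible DNA. The 12 libraries are 2 biological replicates of each of the 3 constructs, sampled at 3 h and at 4 h of methylation, with 13253872 to 37756743 nuclear CpG calls each.

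These cells were dividing and no meiotic sample was included. All levels below are percent methylated calls after division by the authors' correction factor for each construct, given in the order replicate 1 at 3 h and 4 h and then replicate 2 at 3 h and 4 h, and errors are SDs over n = 2 biological replicates. The test was a quasi-binomial fit on the uncorrected calls of each replicate with moderated dispersion and an offset for the genome average of each construct, with Benjamini-Hochberg adjustment over all features of the same kind. Its effect is a log2 odds ratio, and a feature was called at an adjusted p under 0.05. Such p-values rest on 2 replicates per construct and on a dispersion moderated over all features of the same kind. A small p-value therefore does not by itself measure how closely the 2 replicates agreed at a single gene or site.

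The libraries labelled EM shuffle need care. Coverage over ABF1, relative to the chromosome around it, was 1.78 to 1.92 in the WT Abf1 libraries and 0.821 to 1.06 in the no Abf1 libraries. It was 0.901 to 1.10 in the libraries labelled EM shuffle, although their plasmid should also hold a form of ABF1. Coverage over LEU2, the marker of the plasmid, was 0.461 to 0.719, 0.745 to 1.02 and 0.104 to 0.308 of the nuclear median in the same order. The labels also put the libraries labelled EM shuffle in another batch than the other 8, so batch and construct cannot be told apart. Coverage of the 10 windows was 0.713 to 1.40 times the nuclear median over all libraries.

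An exact match to the Abf1 consensus lies in 5 of the 10 windows, those of ZIP1, HOP1, RED1, SPR3 and SMK1, against 25.0% of the 5999 windows of this length that fit on their chromosome. The stretches below are the reference genome around these matches, read along the gene, and are shown because 21 of the 47 CpG sites called with no Abf1 lie within 75 bp of these match centres. The other 26 lie further out. Capitals mark the Abf1 match and, in HOP1 and SMK1, the URS1 core GGCGGC.
ZIP1, chrIV:1031761-1031881, plus strand: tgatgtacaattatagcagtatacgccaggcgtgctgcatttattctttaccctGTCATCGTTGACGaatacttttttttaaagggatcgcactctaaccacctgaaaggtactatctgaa
HOP1, chrIX:226348-226468, plus strand: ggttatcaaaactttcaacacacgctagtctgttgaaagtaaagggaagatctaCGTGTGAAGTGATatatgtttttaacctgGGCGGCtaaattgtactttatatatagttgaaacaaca
RED1, chrXII:670087-670207, plus strand: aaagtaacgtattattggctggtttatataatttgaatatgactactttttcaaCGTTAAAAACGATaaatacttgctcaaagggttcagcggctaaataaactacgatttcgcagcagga
SPR3, chrVII:607195-607315, plus strand: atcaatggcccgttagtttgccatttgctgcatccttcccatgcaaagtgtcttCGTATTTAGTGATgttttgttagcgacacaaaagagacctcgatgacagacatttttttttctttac
SMK1, chrXVI:666104-666224, plus strand: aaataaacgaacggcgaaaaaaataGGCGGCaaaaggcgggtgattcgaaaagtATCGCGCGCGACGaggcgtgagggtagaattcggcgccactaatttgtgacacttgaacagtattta

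The match is centred 615 bp upstream of the start codon in ZIP1, 308 bp in SPR3, 194 bp in HOP1, 193 bp in RED1 and 116 bp in SMK1. It lies outside annotated coding sequence in the first 4, and in SMK1 it lies inside the annotated coding sequence of the divergent gene YPR053C. In HOP1 a match to the UASH pattern TNTGNAGT falls inside the Abf1 match, and a URS1 core lies downstream of it. The windows of IME1, IME2, MEI4, SPO11 and SPO13 hold no exact match to the Abf1 consensus, which says only that these letters are not in those windows.

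Summed over the 10 windows, methylation was 30.6% ± 1.52 with WT Abf1, 30.0% ± 0.642 with no Abf1 and 30.3% ± 0.505 in the libraries labelled EM shuffle. The difference of no Abf1 from WT Abf1 was -0.609 percentage points, and an exact permutation test of the 2 replicates against 2 gave p = 1, where the smallest p this design allows is 0.33. In every replicate the 4 h aliquot exceeded the 3 h aliquot, by 1.66 to 2.19 points before correction.

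With no Abf1, 1 of the 10 windows was called, and 3.03% of all 6002 windows. That window was ZIP1, which codes for a protein of the synaptonemal complex. Its level was 36.1, 36.5, 32.3 and 33.6% with WT Abf1 and 25.8, 28.2, 29.2 and 31.4% with no Abf1. The 2 sets of libraries did not overlap, and ZIP1 fell by 0.39 on the log2 odds scale (SE 0.09, adjusted p = 0.00256, quasi-binomial fit). The call was lost without no Abf1 replicate 1 (-0.31, adjusted p = 0.369), in the 4 h aliquots alone (-0.35, adjusted p = 0.134) and in a window of 500 bp upstream to 500 bp downstream (-0.31, adjusted p = 0.0642).

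The libraries labelled EM shuffle had none of the 10 windows called against WT Abf1, where 0.45% of all windows were; none of the 10 had an unadjusted p under 0.05, and limma called none. Against no Abf1, 3.52% of all windows and 1 of the 10 were called. That window was again ZIP1, at 34.1, 35.7, 29.6 and 34.2%, with a log2 odds ratio of 0.34 (SE 0.10, adjusted p = 0.0334). This call was lost on leaving out any 1 replicate of the constructs compared, in either aliquot alone and with the replicate block (adjusted p = 0.0937). Without the offset for the genome average the log2 odds ratio turned to -0.02 (adjusted p = 0.822).

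The promoter window, 250 to 51 bp upstream of the start codon, separated the genes more sharply. It could be tested in 9 of the 10, since the promoter window of SPR3 holds 1 CpG site and the fit asked for 2. With no Abf1, 2 of the 9 were called, against 11.6% of all 5843 promoter windows.

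HOP1, whose product coats the axes of meiotic chromosomes, lost accessibility there. Its 3 promoter CpG sites stood at 50.9, 54.6, 47.9 and 44.0% with WT Abf1, at 28.7, 29.8, 25.3 and 37.0% with no Abf1, and at 48.7, 51.2, 58.9 and 47.5% in the libraries labelled EM shuffle. No library without Abf1 reached the lowest of either other construct. HOP1 fell by 1.17 with no Abf1 (SE 0.18, adjusted p = 7.25e-05, quasi-binomial fit), and EM shuffle stood 1.16 above no Abf1 (SE 0.19, adjusted p = 1.23e-04).

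SMK1, which codes for a mitogen-activated protein kinase needed to build the spore wall, went the other way. Its 18 promoter CpG sites stood at 61.0, 65.7, 62.0 and 65.2% with WT Abf1, at 68.5, 73.7, 71.0 and 74.4% with no Abf1, and at 65.6, 75.6, 59.3 and 73.2% in the libraries labelled EM shuffle. The WT Abf1 and no Abf1 libraries did not overlap, while those labelled EM shuffle overlapped both. Taken singly, 5 SMK1 sites were called with no Abf1, all inside the Abf1 match and none outside it. The divergent gene NHP6A begins 306 bp upstream of the SMK1 start codon. This promoter window and the Abf1 match lie between both start codons, so their levels cannot be assigned to SMK1 alone. SMK1 rose by 0.69 with no Abf1 (SE 0.09, adjusted p = 3.92e-06) and was lower by a log2 odds ratio of -0.59 in EM shuffle than in no Abf1 (SE 0.09, adjusted p = 7.41e-05), a call that was lost in a window of 400 to 1 bp upstream (-0.21, adjusted p = 0.0896). Levels are given after division by the correction factor, while the fit compares odds of the uncorrected calls, and at highly methylated sites the 2 scales differ for the libraries labelled EM shuffle.

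The other 7 promoter windows tested were not called with no Abf1, and their log2 odds ratios lay between -0.27 (RED1, adjusted p = 0.166) and 0.10 (IME2, adjusted p = 0.881). Against WT Abf1, EM shuffle had 1.01% of all promoter windows called and none of the 9, 1 of which had an unadjusted p under 0.05, and limma called none. Against no Abf1, EM shuffle had 11.4% of all promoter windows called and 2 of the 9, HOP1 and SMK1. In the wider window of 400 to 1 bp upstream, ZIP1 (-0.50, adjusted p = 9.75e-04) and SPR3 (-0.84, adjusted p = 7.33e-05) also fell with no Abf1, and so 4 of 10 were called, against 9.91% of all 5993 such windows. There EM shuffle stood above no Abf1 in ZIP1, HOP1 and SPR3, 3 of 10, against 10.7% of all such windows.

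**Figure D1:**
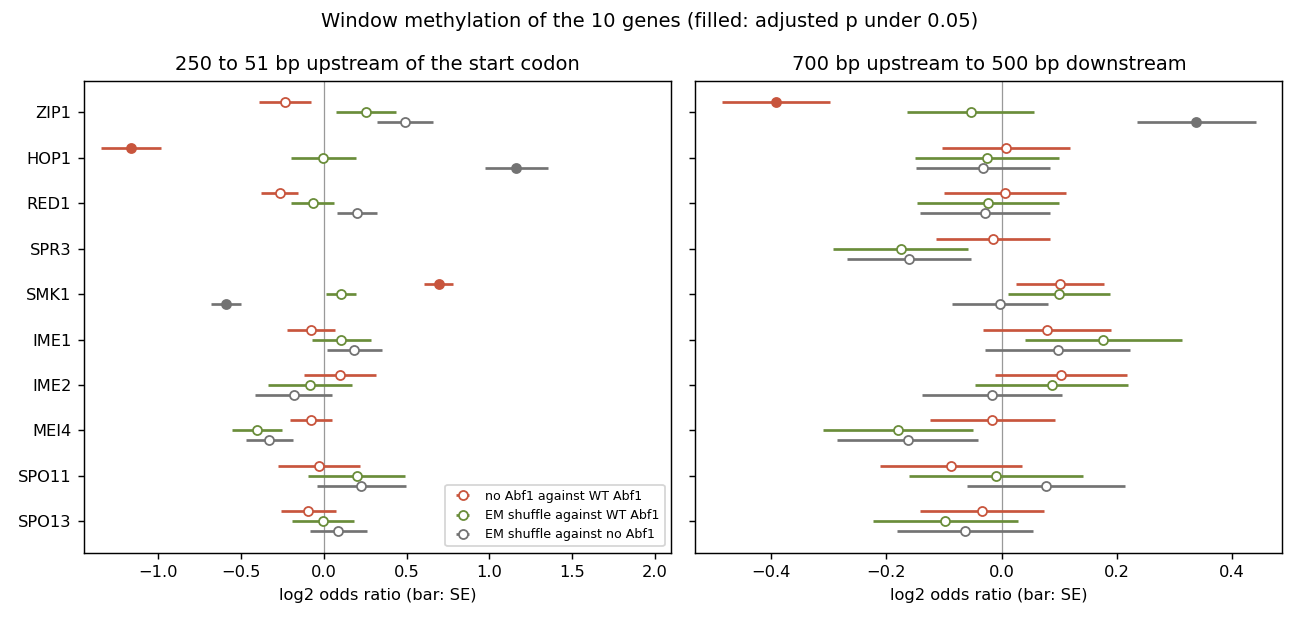
Log2 odds ratio of methylation in 2 windows of each gene, with SE bars, for the 3 comparisons of constructs; filled points have an adjusted p under 0.05 and SPR3 has no promoter value. The filled points are HOP1 and SMK1 in the promoter window and ZIP1 in the wider window. For each, the values of no Abf1 against WT Abf1 and of EM shuffle against no Abf1 lie on opposite sides of 0. These 2 comparisons share the no Abf1 libraries and are not independent.

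At the Abf1 matches themselves the change was larger. Flanks were taken as the CpG sites 10 to 75 bp from the centre of a match, and 40.3% of the 1746 matches of the nuclear genome with such sites were called with no Abf1. Among the 5 matches of these genes 4 were called, all lower. Their log2 odds ratios were -2.07 in SPR3, -1.75 in HOP1, -1.74 in ZIP1 and -0.83 in RED1, where the median of all 1746 matches was -0.22.

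SPR3 codes for a septin of the forming spore. The 3 flank sites stood at 73.9, 67.7, 56.0 and 66.8% with WT Abf1 and at 33.2, 33.9, 29.1 and 31.7% with no Abf1. Those of the libraries labelled EM shuffle were 68.7, 62.0, 73.9 and 69.2%, within the range of WT Abf1. The fall without Abf1 had an SE of 0.21 and an adjusted p = 3.75e-08 in the quasi-binomial fit. EM shuffle against no Abf1, a comparison that shares the no Abf1 libraries, had a log2 odds ratio of 1.9 (SE 0.21, adjusted p = 2.15e-07). Of all matches, 2.29% had a lower value than SPR3 in the same comparison, no Abf1 against WT Abf1.

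In HOP1 the 3 flank sites stood at 52.8, 47.2, 45.7 and 50.3% with WT Abf1, at 21.7, 22.9, 19.2 and 25.7% with no Abf1 and at 37.0, 47.8, 43.7 and 37.8% in the libraries labelled EM shuffle. In ZIP1 the 5 flank sites stood at 63.6, 51.9, 43.9 and 54.9%, at 24, 24.6, 25.0 and 26.2%, and at 42.5, 48.4, 43.4 and 46.9% in the same order. In both genes every library without Abf1 lay below every other library. Adjusted p-values for no Abf1 against WT Abf1 were 8.28e-08 in HOP1 (SE 0.19) and 1.64e-08 in ZIP1 (SE 0.16), and EM shuffle stood 1.30 above no Abf1 in HOP1 (SE 0.19, adjusted p = 9.70e-06) and 1.27 above it in ZIP1 (SE 0.18, adjusted p = 4.87e-06).

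RED1, an axis protein that works together with Hop1, had flanks of 47.9, 43.4, 42.5 and 46.6% with WT Abf1, 31.6, 34.0, 28.4 and 31.6% with no Abf1, and 29.9, 36.2, 29.3 and 42.3% in the libraries labelled EM shuffle. Here the EM shuffle libraries overlapped no Abf1 and lay below all 4 WT Abf1 libraries. The fall without Abf1 passed the test (SE 0.16, adjusted p = 1.73e-04), and was lost when the flanks were widened to 150 bp (-0.16, adjusted p = 0.417). For EM shuffle the log2 odds ratio was 0.25 against no Abf1 (adjusted p = 0.300) and -0.58 against WT Abf1 (adjusted p = 0.137), and neither passed.

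SMK1 differed from the other 4. Its 13 flank sites stood at 74.1, 79.2, 73.4 and 77.8% with WT Abf1, 72.0, 76.5, 73.3 and 77.8% with no Abf1, and 79.9, 87.8, 72.1 and 88.4% in the libraries labelled EM shuffle. The sets overlapped, and the log2 odds ratio of no Abf1 against WT Abf1 was 0.09 (SE 0.11, adjusted p = 0.612). Between EM shuffle and WT Abf1, 1.26% of all matches were called and none of the 5, with an unadjusted p under 0.05 in 3 of them and none called by limma. Between EM shuffle and no Abf1, 40.8% of all matches were called and 3 of the 5.

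**Figure D2:**
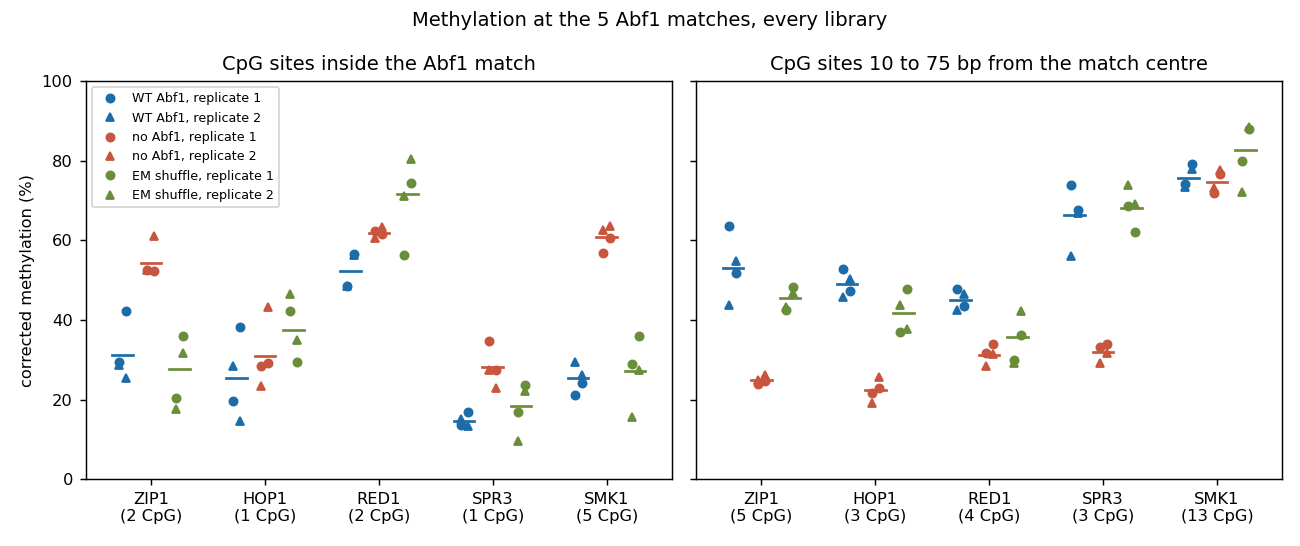
Corrected methylation in percent in every library, inside the Abf1 match (left) and 10 to 75 bp from its centre (right), with circles for replicate 1, triangles for replicate 2 and bars for the mean of the 2 replicates. In the flanks of ZIP1, HOP1 and SPR3 the no Abf1 libraries lie at 19.2 to 33.9%, below all others, and inside the SMK1 match they lie at 56.8 to 63.7%, above all others.

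Single CpG sites showed where in each window the change lay. With no Abf1, 47 of the 302 sites were called, 25 higher and 22 lower, where 4.36% of all sites of the genome were called. All 47 were in the 5 genes with an Abf1 match, 15 in SPR3, 12 in ZIP1, 11 in HOP1, 5 in SMK1 and 4 in RED1, out of 166 sites. In the other 5 genes 0 of 136 sites were called, 5 sites had an unadjusted p under 0.05, and limma called 0. Over all genes, 16.5% of sites in windows with an Abf1 match and 2.56% of sites in windows with none were called. Over the 13 settings of the fit, no site of IME1, IME2, MEI4, SPO11 or SPO13 was called in this comparison, while the total ranged from 24 with limma to 47.

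Inside the Abf1 matches lay 11 CpG sites, and 9 of them rose with no Abf1. At 7 to 75 bp from the match centre 12 of 28 sites were called, and all 12 fell. At 76 to 200 bp 4 sites rose and 1 fell of 25, and beyond 200 and up to 700 bp 12 rose and 9 fell of 92. Over all matches of the genome the called share in the same distances was 30.9, 23.7, 16.5 and 9.64%, with 786 higher and 102 lower sites in the innermost class and 212 higher and 1628 lower in the next.

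**Figure D3:**
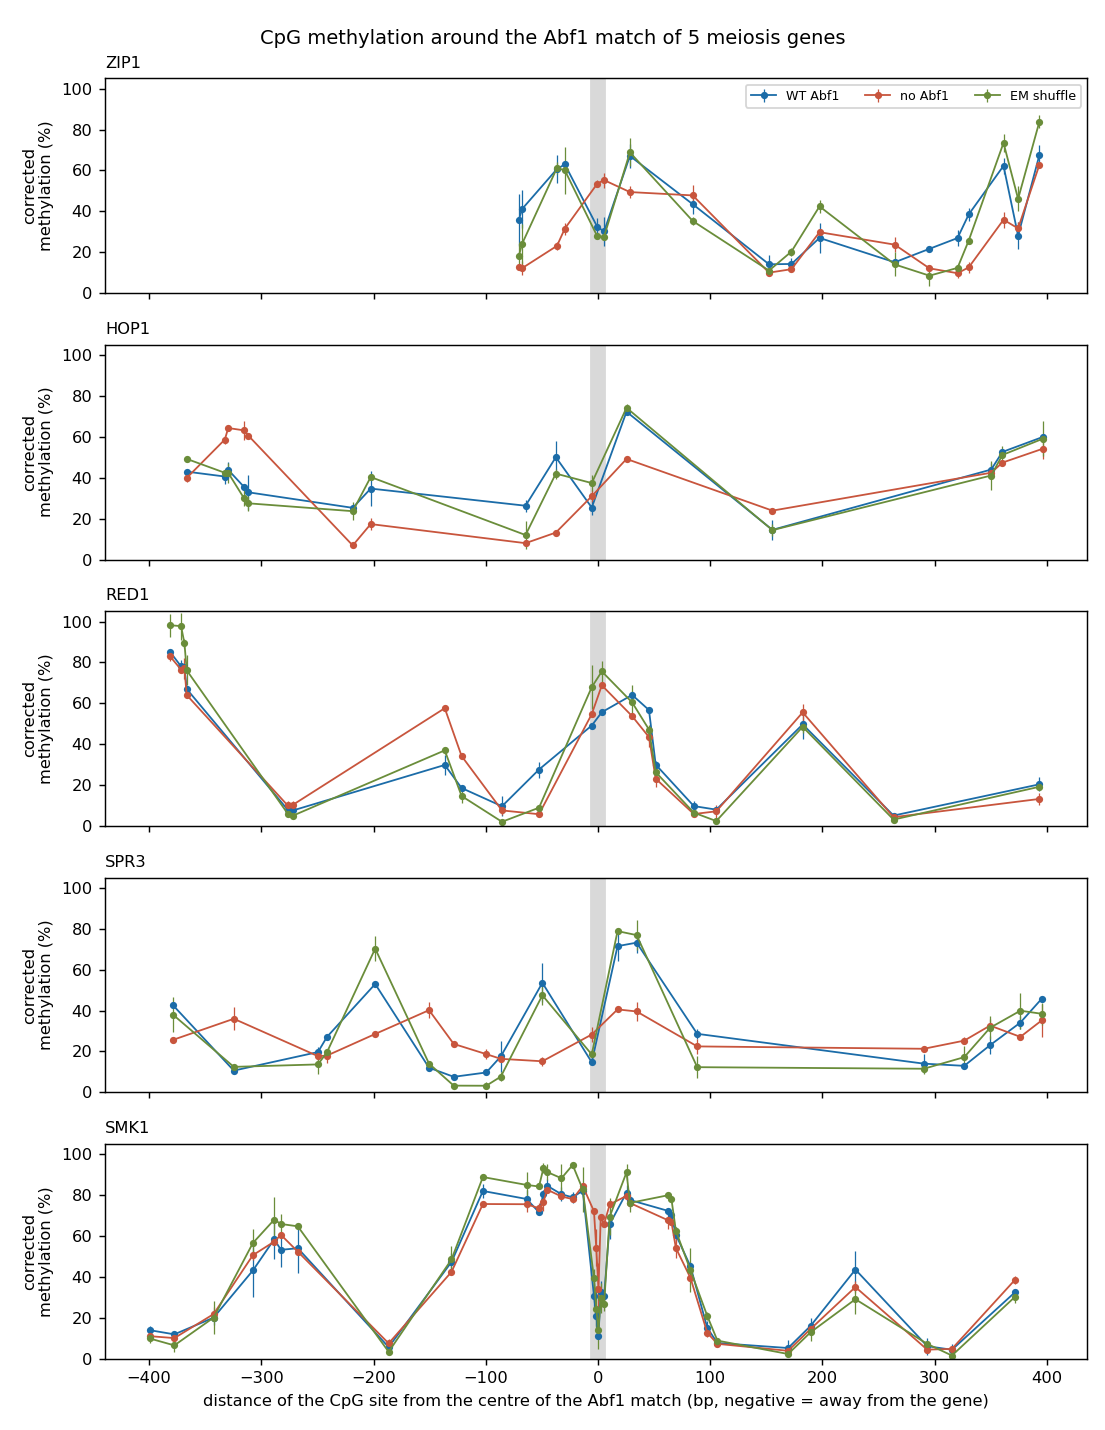
Corrected methylation of each CpG site in percent, mean and SD of 2 replicates, against its distance from the centre of the Abf1 match (grey), read along each gene. With WT Abf1 and in the libraries labelled EM shuffle, SMK1 has a narrow dip inside the match between high shoulders and SPR3 has high shoulders, and with no Abf1 the SMK1 dip is shallower and the SPR3 shoulders are lower.

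The SMK1 match alone holds 5 CpG sites, which makes it the best resolved of the 5. Together they stood at 21.3, 24.3, 29.4 and 26.3% with WT Abf1, at 56.8, 60.6, 62.7 and 63.7% with no Abf1, and at 28.9, 35.9, 15.6 and 27.4% in the libraries labelled EM shuffle. The no Abf1 libraries stood apart, and the other constructs overlapped. Each of the 5 sites rose with no Abf1, by a log2 odds ratio of 1.95 to 2.65, and each was lower in EM shuffle than in no Abf1, by -1.40 to -2.44. The site 120 bp upstream of the start codon went from 30.7% ± 6.34 to 72.1% ± 1.11 (log2 odds ratio 2.65, SE 0.32, adjusted p = 2.11e-13) and stood at 39.5% ± 4.67 in the libraries labelled EM shuffle. No SMK1 site outside the match was called in this comparison.

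In ZIP1 both sites inside the match rose, to 53.6% ± 1.92 from 32.4% ± 4.16 and to 55.3% ± 3.65 from 30.2% ± 7.04, with log2 odds ratios of 1.33 and 1.59. The site 652 bp upstream of the start codon, outside the match, stood at 65.1, 66.0, 51.1 and 63.2% with WT Abf1 and at 22.1, 21.1, 26.4 and 22.3% with no Abf1. It fell by 2.32 (SE 0.27, adjusted p = 3.38e-15) and stood at 62.0, 56.3, 60.8 and 64.8% in the libraries labelled EM shuffle. All 10 of the ZIP1 sites that fell lay in 2 clusters, 5 of them within 75 bp of the match and 5 at 295.5 to 437.5 bp from it towards the gene.

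That second cluster holds the sites 320, 295, 285, 254 and 178 bp upstream of the ZIP1 start codon. The site at 254 bp fell from 62.2% ± 3.75 to 35.9% ± 3.90 and stood at 73.5% ± 4.30 in the libraries labelled EM shuffle. The site at 285 bp fell from 38.5% ± 3.01 to 12.6% ± 2.86 and stood at 25.7% ± 1.83. No site of the ZIP1 coding sequence was called in this comparison.

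In HOP1 the site 232 bp upstream of the start codon stood at 57.7, 53.3, 44.3 and 44.3% with WT Abf1 and at 6.92, 20.1, 8.54 and 16.8% with no Abf1. It fell by 2.70 (SE 0.29, adjusted p = 1.97e-17), the steepest fall among the 302 sites, and EM shuffle, at 36.4, 48.5, 43.4 and 38.3%, stood 2.23 above no Abf1 (adjusted p = 5.11e-11). The single CpG site inside the HOP1 match was at 25.4% ± 3.8, 30.9% ± 3.00 and 37.4% ± 3.83 in the 3 constructs and was not called in any comparison. Further upstream 6 sites between 506 and 693 bp rose with no Abf1. The site at 510 bp stood at 35.1, 36.4, 30.3 and 41.8% with WT Abf1, at 68.3, 65.0, 51.5 and 68.5% with no Abf1 and at 24.8, 38.8, 28.7 and 26.0% in the libraries labelled EM shuffle. This stretch is shared with SPO22, the divergent gene that begins inside the HOP1 window, so both genes' windows use the same sites.

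SPR3 had the most called sites, 9 higher and 6 lower, interspersed along the window. Just outside the match the site 358 bp upstream of the start codon stood at 64.9, 53.8, 43.3 and 50.8% with WT Abf1, 12.7, 20.8, 10.7 and 18.0% with no Abf1, and 48.6, 40.1, 41.0 and 57.4% in the libraries labelled EM shuffle. It fell by 2.68 (SE 0.29, adjusted p = 4.05e-17). The site 459 bp upstream did the reverse, at 9.41, 19.2, 10.1 and 11.9%, then 37.0, 38.0, 44.1 and 41.3%, then 9.98, 20.0, 12.5 and 13.5%, and rose by 2.29 (SE 0.32, adjusted p = 3.41e-10). Among the called SPR3 sites, the 9 that rose stood at 7.61 to 14.8% with WT Abf1 and the 6 that fell at 35.7 to 73.2%. These sites were picked by their change from the same WT Abf1 values. The split by level is thus partly set by the selection, and sites not called are left out of it.

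SPR3 was also the one gene of the 10 with called sites inside its coding sequence, 5 higher and 1 lower, from 18 to 370 bp past the start codon. The site at 185 bp rose from 13.7% ± 1.66 to 32.6% ± 0.214 and stood at 18.6% ± 0.0506 in the libraries labelled EM shuffle (log2 odds ratio 1.59 for no Abf1 against WT Abf1). Its window was nonetheless near the same level in sum, 25.8% ± 1.48 and 25.6% ± 1.07, since rises and falls were about equal.

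RED1 had 4 called sites. The site 246 bp upstream of the start codon stood at 35.8, 25.4, 25.6 and 23.7% with WT Abf1, at 6.05, 5.84, 3.25 and 9.19% with no Abf1 and at 8.20, 8.97, 9.06 and 9.31% in the libraries labelled EM shuffle. It fell by 2.60 with no Abf1 (SE 0.38, adjusted p = 2.87e-09), and it was the only site in the 5 genes with a match that also differed between EM shuffle and WT Abf1 (log2 odds ratio -1.82, adjusted p = 0.00754). The sites 330 and 315 bp upstream rose with no Abf1, from 29.8% ± 4.96 to 57.6% ± 1.41 and from 18.6% ± 0.521 to 34.2% ± 1.13, and were lower in EM shuffle than in no Abf1. Inside the match 1 of the 2 sites rose, from 55.6% ± 0.860 to 68.8% ± 0.771 (adjusted p = 0.0102). With WT Abf1 the inside of the RED1 match was at 52.4% ± 0.751, above the 14.7 to 31.3% inside the other 4 matches.

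**Figure D4:**
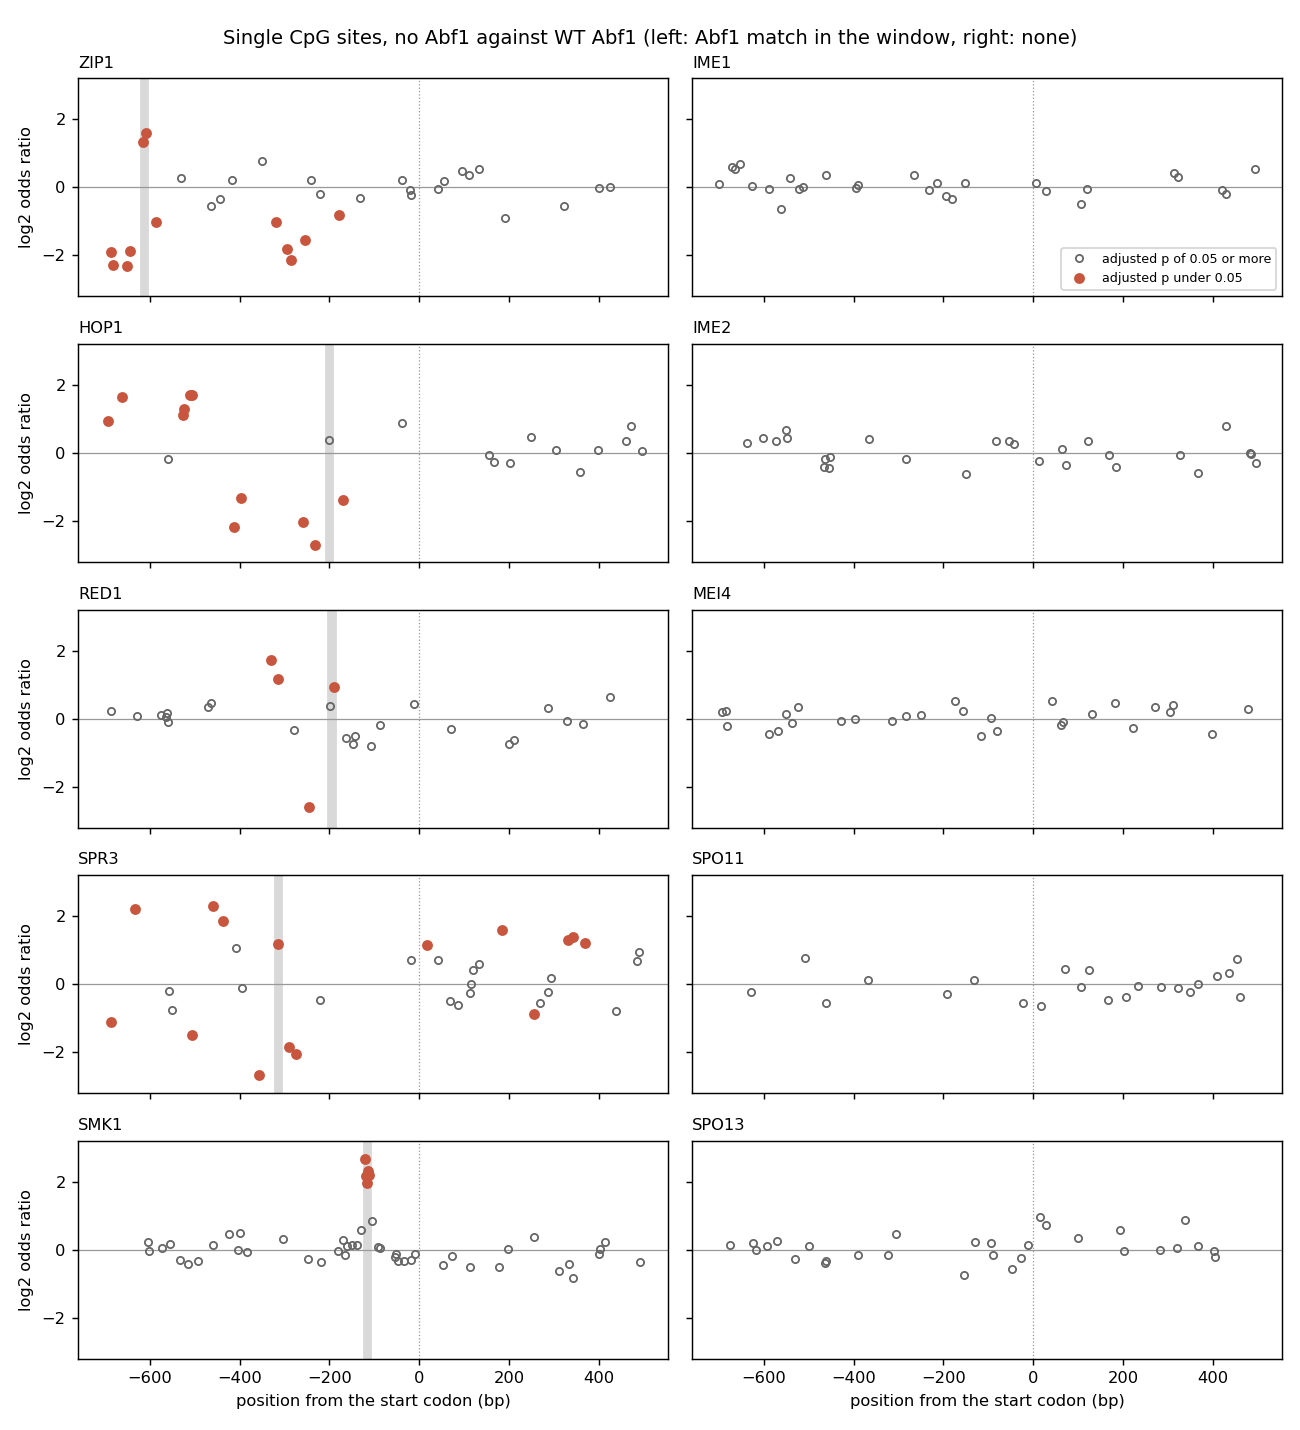
Log2 odds ratio of no Abf1 against WT Abf1 for each of the 302 CpG sites, by position from the start codon; red points have an adjusted p under 0.05 and grey bands mark the Abf1 match. The left column, with a match, holds all 47 red points, and the right column, with none, has log2 odds ratios between -0.73 and 0.97.

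The libraries labelled EM shuffle differed from WT Abf1 at 4 of the 302 sites, where 0.492% of all sites were called, and from no Abf1 at 36, 15 higher and 21 lower, where 3.87% were. Of the 36, 33 lay in the 5 genes with a match. Of the 4 sites, 3 lay in IME2, which codes for the meiosis-specific kinase that follows Ime1. The IME2 site 551 bp upstream of the start codon stood at 42.4, 42.1, 40.0 and 57.4% with WT Abf1, 51.4, 63.4, 58.2 and 47.9% with no Abf1 and 66.8, 74.3, 78.1 and 70.5% in the libraries labelled EM shuffle, with a log2 odds ratio of 1.26 for EM shuffle against WT Abf1 (SE 0.29, adjusted p = 0.00521). The G of this IME2 site is the first base of the URS1 core at chrX:220840-220845. The 4 calls were lost with limma, which called 0. Their number fell to 0 without WT Abf1 replicate 1 or without either EM shuffle replicate.

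URS1 cores, GGCGGC on either strand, lay in 7 of the 10 windows, against 20.7% of all windows, and in 4 promoter windows, against 3.77%. The core overlaps no other pattern searched in these windows and holds 1 CpG site, so each of the 9 cores could be read directly. They are shown with 10 bases on each side, along the strand of the core.
IME2, chrX:220840-220845, plus strand: tttatgttacGGCGGCtatttgagtt
IME2, chrX:220935-220940, plus strand: gcgagacttcGGCGGCaaaaagccac
HOP1, chrIX:226073-226078, minus strand: tacaaacttcGGCGGCtaattgcaaa
HOP1, chrIX:226431-226436, plus strand: ttttaacctgGGCGGCtaaattgtac
ZIP1, chrIV:1032416-1032421, plus strand: aaataccctcGGCGGCtaaattttta
SPO11, chrVIII:63988-63993, minus strand: tcctgtcattGGCGGCtaattcatta
MEI4, chrV:239865-239870, minus strand: tatattgctgGGCGGCtaaatgtttc
SPO13, chrVIII:131952-131957, minus strand: cctttttgtcGGCGGCtatttctcaa
SMK1, chrXVI:666129-666134, plus strand: gaaaaaaataGGCGGCaaaaggcggg

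Of the 9 URS1 sites, 2 were called with no Abf1, both in HOP1 and in opposite directions, where 4.36% of all sites of the genome and 16.5% of sites in windows with an Abf1 match were called. The core 25.5 bp from the centre of the Abf1 match stood at 71.6, 75.0, 72.0 and 71.2% with WT Abf1, 53.5, 43.1, 46.3 and 53.5% with no Abf1 and 70.6, 74.0, 86.9 and 68.0% in the libraries labelled EM shuffle, a fall of 1.38 without Abf1 (SE 0.27, adjusted p = 3.97e-05). The HOP1 core further upstream stood at 30.3, 50, 41.7 and 45.1%, then 55.8, 58.6, 56.1 and 64.3%, then 39.5, 44.3, 51.7 and 36.2%, and rose by 1.11 (SE 0.26, adjusted p = 0.00153). In SMK1 the core lies inside the coding sequence of YPR053C, 32.5 bp from the match centre. It stood at 80.5% ± 3.49, 79.4% ± 0.301 and 88.3% ± 6.83, with no call.

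The CpG sites inside the URS1 cores of the genes without an Abf1 match differed widely in level and were not called in any comparison. At the edge of an IME2 core, a CpG site was called for EM shuffle against WT Abf1, as given above. The SPO11 core lies inside the SPO11 coding sequence, 166.5 bp past the start codon, and those of SPO13, MEI4 and IME2 lie outside annotated coding sequence. With WT Abf1 these URS1 sites stood at 67.1% ± 1.00 in SPO13, 55.4% ± 7.64 in MEI4, 33.4% ± 5.75 in SPO11, and 44.8% ± 5.80 and 8.37% ± 0.05 in IME2. The same letters thus stood at different levels at the 2 cores of the IME2 promoter. The ZIP1 core, close to its start codon and far from the Abf1 match, stood at 60.7% ± 3.88 and was not called either.

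**Figure D5:**
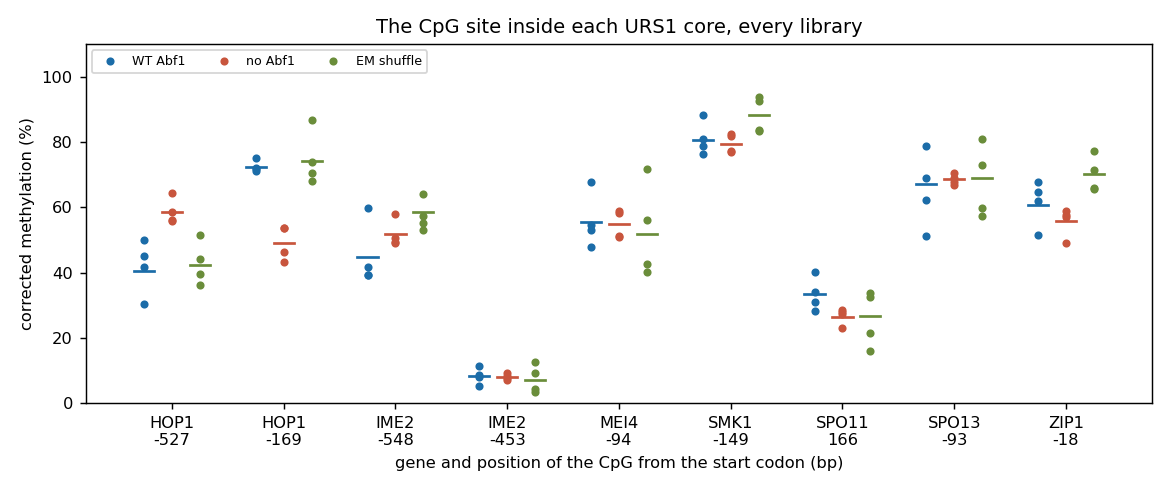
Corrected methylation in percent of the CpG site inside each URS1 core, every library, with a bar for the mean of 2 replicates, by gene and position from the start codon. The no Abf1 libraries lie above the others at the HOP1 core at -527 and below them at the core at -169. At the other 7 cores the CpG site inside the core was not called.

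The other patterns searched on both strands were UASH (TNTGNAGT or TNTGNTGT), the cores CACAAA and CGCAAA of the middle sporulation element bound by Ndt80, and T4C (TTTTCNNCG). UASH patterns were in 10 of 10 windows, against 82.1% of all windows, the middle sporulation element cores in 6, against 74.7%, and T4C in 3, against 24.1%. Few of them hold a CpG site. In RED1 a T4C pattern overlaps the edge of the Abf1 match, and the other T4C sites of RED1 stood at 77.8 to 85.3% with WT Abf1 and were not called.

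The genes without an Abf1 match still differed among themselves. SPO11, whose product makes the double-strand breaks of meiosis, had 74.4% ± 0.526 at the 2 CpG sites of its promoter window with WT Abf1, where 90.1% of all genes were lower. SPO13 stood at 45.6% ± 2.08, MEI4, which codes for another protein needed for the breaks, at 40.0% ± 0.395, IME1, the master regulator of entry into meiosis, at 26.6% ± 0.0236 and IME2 at 23.4% ± 2.69, where the median of all genes was 50.2%. Over the whole window IME1 stood at 23.3% ± 0.787, and 5.05% of all genes were lower. SPO11 stood at 27.9% ± 2.64 over the whole window, and 23.4% of all genes were lower. Without Abf1 these 5 promoters were at 72.1, 43.7, 38.6, 25.5 and 25.0%, each with overlapping libraries.

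Other meiosis and sporulation genes were looked up in the promoter windows. Of 26 early meiotic genes 6 were called with no Abf1, 4 lower and 2 higher, against 11.6% of all promoter windows, with a median log2 odds ratio of -0.02 where that of all genes was -0.00. Of these 26, 5 hold an Abf1 match in the start-codon window, and 4 of the 6 called genes are among them. Those 4 are NDJ1, which tethers telomeres in meiosis (from 46.3% ± 1.13 to 31.7% ± 2.00), HFM1, a meiotic helicase (from 52.9% ± 1.11 to 36.0% ± 3.24), SAE3, an accessory factor of the strand exchange protein Dmc1 (from 53.1% ± 3.06 to 33.9% ± 0.969), and SPO22, which rose from 36.7% ± 2.75 to 47.8% ± 0.304. The other 2, HED1 and MSH4, hold none and had log2 odds ratios of -0.43 and 0.49. SPO22 is the divergent neighbour of HOP1, and its promoter window lies inside the HOP1 window, so its promoter sites are also HOP1 sites. The Abf1 match of HOP1 also lies in the start-codon window of SPO22, so SPO22 is not a case separate from HOP1.

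Of 33 middle and late sporulation genes 30 could be tested, and 3 fell with no Abf1, SPO20, SPS18 and SPS19, a share near the 11.6% of all promoter windows. None of the 3 holds an Abf1 match, and SPS18 and SPS19 are divergent neighbours whose promoter windows cover the same 10 sites. Of 12 regulators of meiotic entry 1 fell, also near that share, MCK1, which codes for a kinase (from 35.2% ± 3.21 to 25.5% ± 1.61). The median log2 odds ratios were -0.04 and 0.10. Against no Abf1, EM shuffle had 4 early genes called (SAE3, HFM1 and NDJ1 higher, SPO22 lower), 4 middle and late genes (SPO20, LDS1 and SPO74 higher, SPS2 lower) and 1 regulator (MCK1, higher), where 11.4% of all promoter windows were called. Against WT Abf1 it had 0 of 26, 0 of 30 and 0 of 12 called, with an unadjusted p under 0.05 in 4, 2 and 0 of them.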

How the data were processed

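The authors called bases and 5-methylcytosine with Dorado and mapped reads with minimap2 2.17 to sacCer3 (R64). They sorted with SAMtools 1.9, indexed with SAMtools 1.15 and summarised calls with modkit. Their deposited files hold, per CpG, the coverage as a count of calls, the methylated fraction after correction and the correction factor, a ratio of genome averages (1 for WT Abf1). In the libraries labelled EM shuffle the corrected fraction exceeds 1 at some sites, so the authors' values there also act as a ratio. Methylated calls were recovered as fraction times factor times coverage, which was whole at 100% of positions. The labels and paper say that replicates are biological and that the 3 h and 4 h aliquots are technical, so the calls of both were added.

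Sites under 5 calls in any library were left out, and windows needed 2 sites. Member sites had 19 to 129 calls per library, and errors over replicates and calls cover no other source. Calls plus a pseudocount of 0.5 were fitted per construct with a quasi-binomial model (R 4.3.3, limma 3.58.1 for the dispersion), with Benjamini-Hochberg adjustment per comparison over all windows, sites or matches, and checked on simulated data. No 2 libraries differed by less than counting noise (mean squared difference 1.04 to 2.18 times it over 66 pairs). Named were all 10 genes, their called sites and sites inside the patterns, and, of the other lists, called promoter windows. The 10 genes and all lists were chosen with earlier results of these data known. Sequences and annotation are from the RefSeq R64 assembly. Alternatives were no offset, limma, 1 aliquot, only the constructs compared, the replicate block, other coverage minimums, windows and flanks, and leaving out each replicate.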

Additional observations from a re-analysis of the deposited data

Results flagged for a closer look

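Of 96 groups of 4 libraries examined, 2 held a library far from the other 3 by Dixon's criterion, and chance alone picks out about 1 group in 20. Inside the ZIP1 match, no Abf1 replicate 2 at 4 h stood at 61.1%, above the other 3 no Abf1 libraries at 52.4 to 52.6%. Over the 5 windows with no Abf1 match together, no Abf1 replicate 1 at 3 h stood at 25.1%, below the other 3 at 27.0 to 27.4%.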

How the results depend on the processing

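Of 2028 values of single genes and sites under the alternatives, 1777 stayed on their side of the threshold, 225 lost their call, 21 gained one and 5 that were called under either setting turned direction. Of the 1777, 92 changed sign and were called under neither setting, among them RED1 flanks for EM shuffle against no Abf1 (-0.24 with flanks to 150 bp) and the RED1 promoter for no Abf1 against WT Abf1 (0.04 in the window of 400 to 1 bp). The 5 were HOP1 in the window of 500 bp on each side (-0.45 for no Abf1 against WT Abf1 and 0.42 for EM shuffle against no Abf1), and, without the offset, ZIP1, SPO11 and IME1 for EM shuffle against no Abf1 (-0.0241, -0.28 and -0.26). The cause was not tested.

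Counts of called members moved as follows. For no Abf1 against WT Abf1, the 1 start-codon window became 0 in the 4 h aliquots, the 2 promoter windows became 4 in the window of 400 to 1 bp and 1 with at least 4 sites (fewer windows tested), and the 47 sites became 24 with limma and 30 in the 4 h aliquots. For EM shuffle against WT Abf1, leaving out the offset turned 0 start-codon windows, 0 promoter windows, 4 sites and 0 flanks into 6, 1, 16 and 3, and the 4 sites became 0 with limma, 1 at 3 h and 0 at 4 h. For EM shuffle against no Abf1, the 1 start-codon window became 9 without the offset, 0 at 3 h, 0 at 4 h and 2 in the 500 bp window, the 2 promoter windows became 1 with at least 4 sites, 3 in the window of 400 to 1 bp (SMK1 lost, ZIP1 and SPR3 gained) and 3 without the offset (MEI4 gained), and the 36 sites became 76 without the offset, 20 with limma and 21 at 3 h.

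Leaving out 1 replicate, where the lone sample left is assumed to vary like the other constructs, gave in the same order of comparisons 0 to 1, 0 to 0 and 0 to 0 start-codon windows, 2, 0 and 2 promoter windows, 34 to 41, 0 to 4 and 22 to 30 sites, and 4, 0 and 3 flanks. The difference over the 10 windows together ranged from -1.68 to 0.47 points for no Abf1 and from -1.38 to 0.77 for EM shuffle. Replicate numbers do not pair the cultures, since the differences between replicates 1 and 2 correlated at -0.02 to 0.02 between constructs. With the replicate block the counts were 1, 0 and 0 start-codon windows, 2, 0 and 2 promoter windows, 46, 2 and 34 sites, and 4, 0 and 3 flanks. Depth limits single sites most, where a library has as few as 19 calls.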
